A study of Mus musculus with 6 samples.

Results

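The 107 genes described here had more transcript when Activin A was left out of cultures of mouse epiblast stem cells (EpiSC), the primed pluripotent cells that are derived from the epiblast of the embryo. They were taken from 52609 annotated genes, of which 19816 are protein-coding with a gene name other than a Gm or Rik number. A gene was chosen where its mean without Activin A was at least 2 TPM (a transcript level divided by length and expressed relative to the whole library) and at least 2 times its mean with Activin A, and where the lowest library without lay above the highest library with. This was met by 121 genes. Left out by name were 16 genes (Peg10, Igf2, Peg3, Peg12, Mest, Id1, Id2, Id3, Id4, Gbx2, Tnfrsf19, Frzb, Cdh6, Myh7, Acta2 and Dusp5), 14 of which met the rule. The TPM levels and their ratios are therefore what chose the genes, and they are given as a description with no test. Gene coordinates are those of GENCODE release M21 on GRCm38.

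The study compared 3 RNA-seq libraries of EpiSC grown without Activin A with 3 grown with Activin A at 20 ng/mL. Both groups received FGF2 at 10 ng/mL, the Wnt secretion inhibitor IWP2 at 5 µM and SB431542 at 2 µM, which inhibits the kinase of the type I receptors of Activin and TGF-beta. The cells were kept on a layer of inactivated embryonic fibroblasts (feeder cells). The title of the series names ectoderm allocation as its subject. The genotype label states Wnt and TGF-beta inhibition in both groups, and no transgene or engineered allele is named. The libraries are called replicates 1, 2 and 3 of each group, and values are given in that order. The libraries held 13567995 to 14992042 estimated reads without Activin A and 9946521 to 16350923 with it. The growth factor label of replicate 1 without Activin A lists Activin A although the title and genotype labels of that sample do not, and 1 treatment text is given to all 6 samples. The design text mentions 2 lines with 3 replicates each, so a difference of line cannot be told apart from Activin A. The labels do not say whether replicates were separate cultures, so p-values cover only a spread between samples that may be technical. In bulk RNA, fewer cells of a type and less RNA per cell cannot be told apart.

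Activin A is a ligand of the TGF-beta family that activates SMAD2 and SMAD3 and maintains EpiSC in culture. Bone morphogenetic proteins (BMPs) of the same family act through SMAD1 and SMAD5 by receptors that SB431542 spares, and Wnt proteins act through Frizzled receptors and beta-catenin. In the embryo the anterior epiblast forms neural ectoderm where Nodal, BMP and Wnt signals are low, and Wnt1, Lmx1b and En1 mark the later boundary of midbrain and hindbrain.

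The 107 genes lie on 20 chromosomes and were mostly raised by 2- to 3-fold. Their mean level had a median of 6.75 TPM without Activin A, with a range of 2.09 to 241 TPM, and a median of 2.67 TPM with Activin A, with a range of 0 to 118 TPM. The ratio of the means was from 2 to 3 in 78 genes, from 3 to 5 in 17 and above 5 in 12, one of which had no reads with Activin A. The median ratio over the 106 genes with a ratio was 2.45, against 1.04 over all 10318 eligible genes with a mean of at least 2 TPM without Activin A. The coefficient of variation (SD over mean of 3 libraries) had a median of 8.63% without Activin A and 17.0% with it. The lowest library without Activin A was replicate 1 in 45 genes, replicate 2 in 32 and replicate 3 in 30.

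Of those 10318 genes, 20.9% did not overlap between the groups and were higher without Activin A, and 1.17% met the whole rule. On read counts, edgeR's quasi-likelihood test at an adjusted p of 0.05 tested 105 of the 107 and called 103 higher, beside 14.0% of all 15448 genes tested. Since the rule used the same contrast, nothing is read from that count. Ddit3 and Zfp991 had too few reads to be tested, and Stab1 and Pakap were tested and not called.

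**Figure D1:**
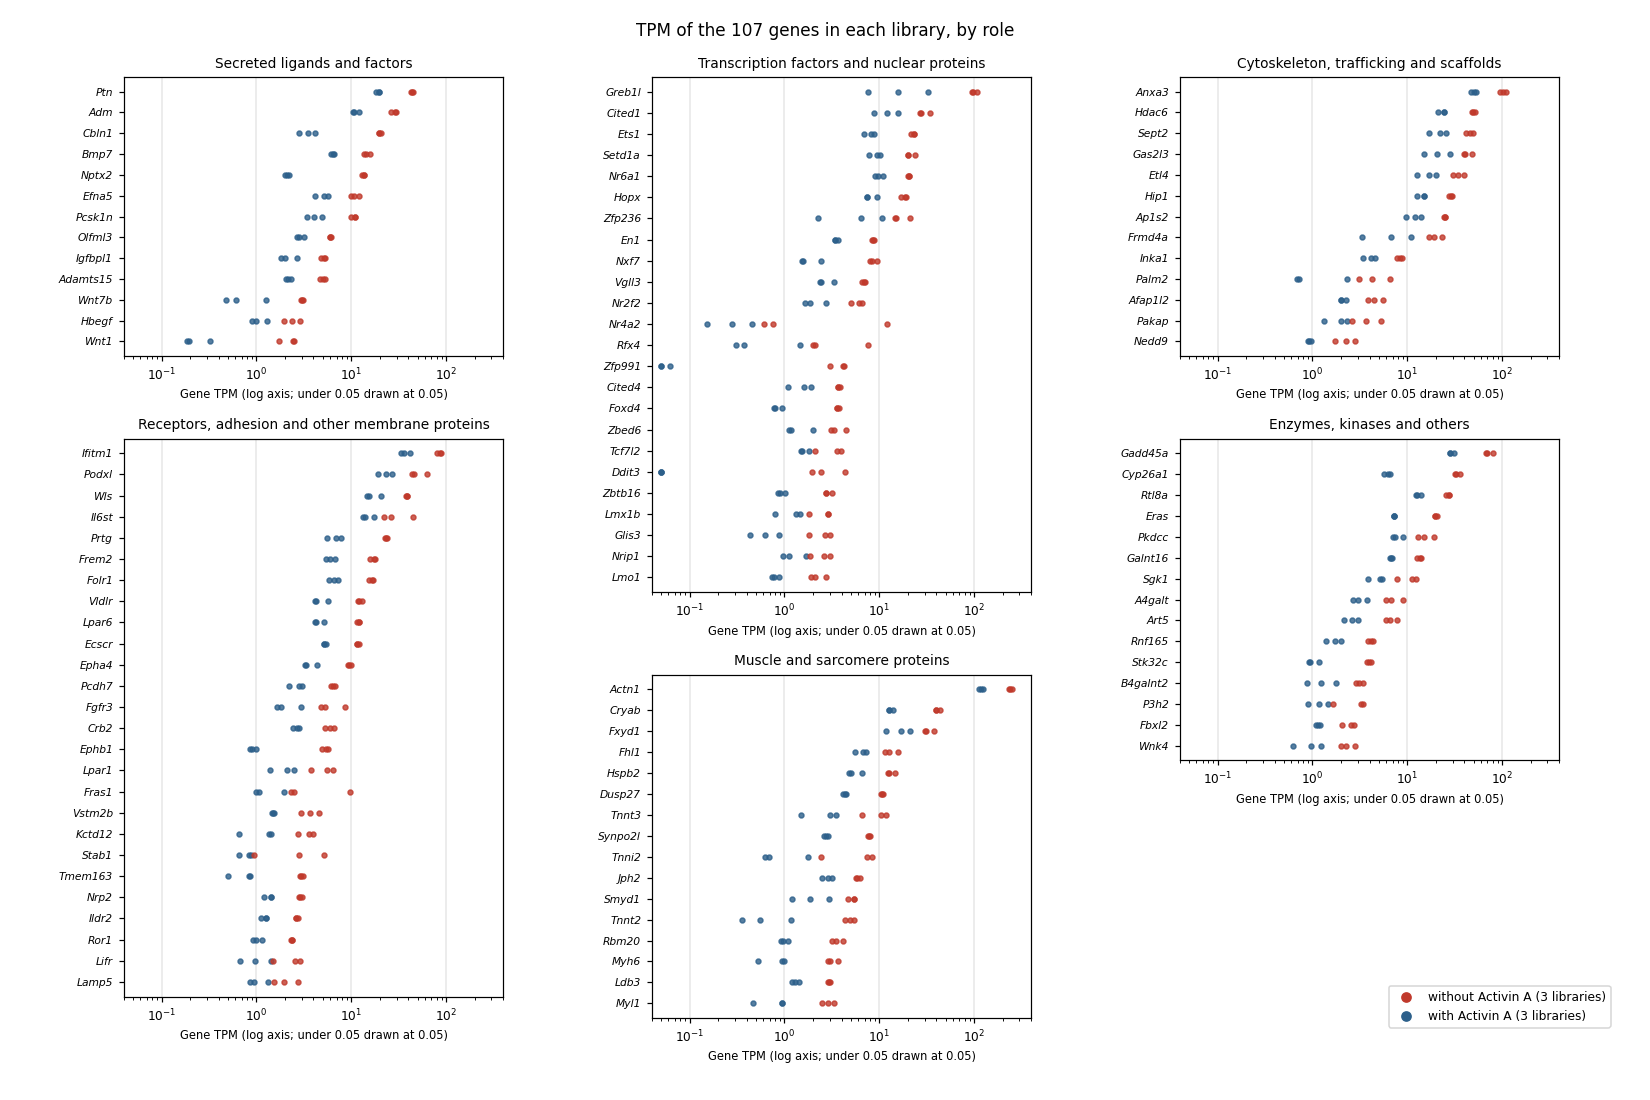
TPM of each of the 107 genes in the 6 libraries on a log axis, arranged by role, with the libraries without Activin A and with Activin A in different colours and values under 0.05 drawn at 0.05. Levels range from Actn1, with means of 241 TPM without and 118 TPM with Activin A, to genes near the floor of the rule such as Wnt1, with 2.20 and 0.235 TPM.

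For some of these genes the TPM ratio came from transcripts so short that single reads give many TPM. CPM, the estimated read count of a gene scaled by the TMM-adjusted library total, does not divide by transcript length, and by this measure the ratio of the means was at least 2 in 80 genes, from 1.5 to under 2 in 17 and under 1.5 in 9. The median CPM ratio was 2.23, with a range of 1.07 to 9.13 over 106 genes, against 1.02 over the 10318 genes. The groups did not overlap in CPM in 105 genes and overlapped in 2. The rule chose the genes for a ratio of at least 2 and no overlap in TPM from the same reads. Nothing is thus read from the count without overlap. The same holds for counts at a CPM ratio of at least 2, here and in the role groups below. In TPM, 20.9% of the 10318 genes did not overlap and were higher without Activin A. The CPM share was not counted, nor was their share at a CPM ratio of at least 2. In 13 genes (12.1%) at least 50% of the TPM without Activin A came from transcripts with an effective length under 100 bases, against 5.43% of the 10318 genes. These 13 are Ddit3, Zfp991, Nr4a2, Rfx4, Greb1l, Stab1, Fras1, Zfp236, Il6st, Frmd4a, Fxyd1, Cited1 and Lpar1. With such transcripts left out, 95 genes met the rule, 91 of which were among the 107.

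Ddit3, which encodes the stress factor CHOP, shows the extreme. The gene record that met the rule (ENSMUSG00000116429.1, chromosome 10, 127290829 to 127293753) has a single transcript of 105 bases, listed at 1.98, 4.34 and 2.44 TPM without Activin A and at 0, 0 and 0 TPM with it. It held at most 0.46 estimated reads in a library, so no fold is given. The main Ddit3 record (ENSMUSG00000025408.15) had 7.52, 9.22 and 8.57 TPM without Activin A, against 8.70, 7.68 and 10.6 TPM with it, and these groups overlap.

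Zfp991, a zinc finger gene, was at 4.12, 4.27 and 2.99 TPM without Activin A, against 0.0365, 0 and 0.0623 TPM with it, on 17.2 reads over all 6 libraries. Its TPM came from a transcript with at most 1.52 reads in a library, and 88.0% of its 31-base words also occur in other genes. Nr4a2, the orphan nuclear receptor NURR1 of midbrain dopamine neurons, was at 0.765, 0.614 and 12.2 TPM without Activin A, against 0.458, 0.281 and 0.154 TPM with it. A transcript with 2 reads held the high value of replicate 3, and the CPM ratio was 2.44 against a TPM ratio of 15.2. Stab1, a scavenger receptor of endothelium and macrophages, was at 2.83, 5.18 and 0.943 TPM without Activin A, against 0.651, 0.845 and 0.884 TPM with it. The CPM ratio of Stab1 was 1.07, and its ratio over longer transcripts was 0.946, so only the short transcripts carried its place in the rule.

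**Figure D2:**
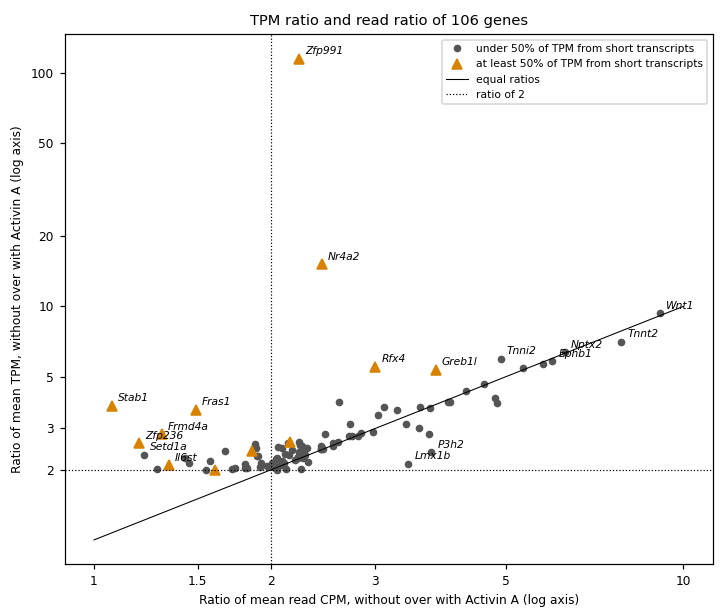
Ratio of the group means in TPM (vertical axis) against the ratio in CPM of reads (horizontal axis) for the 106 genes with both ratios, without over with Activin A, both on log axes, with genes that draw at least 50% of their TPM from short transcripts marked. Most genes lie near the diagonal, and Zfp991 with a TPM ratio of 115 and a CPM ratio of 2.23 lies farthest from it.

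All 13 genes for secreted ligands and factors had a CPM ratio of at least 2, and the median TPM ratio was 2.33. The largest ratio was that of Wnt1 (ENSMUSG00000022997.9, chromosome 15, 98789857 to 98793837), a Wnt ligand needed to form the midbrain and anterior hindbrain. Wnt1 was at 2.47, 2.40 and 1.72 TPM without Activin A, against 0.193, 0.325 and 0.187 TPM with it, a ratio of 9.36. It rested on 120, 117 and 79 reads without Activin A and on 11, 16 and 6 reads with it, so the level was low in both groups and the size of the ratio is imprecise. Wnt7b, a second Wnt ligand on the same chromosome, was at 2.96, 3.03 and 3.10 TPM without Activin A, against 0.614, 1.27 and 0.484 TPM with it.

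Nptx2 (ENSMUSG00000059991.7, chromosome 5, 144545902 to 144557478) encodes a secreted pentraxin of excitatory synapses. It was at 13.1, 13.7 and 13.7 TPM without Activin A, against 2.13, 2.02 and 2.20 TPM with it. Cbln1 (ENSMUSG00000031654.16, chromosome 8, 87468405 to 87472609), a secreted synapse organiser of the cerebellum, was at 19.4, 19.4 and 20.6 TPM without Activin A, against 4.18, 2.80 and 3.47 TPM with it. The ratios were 6.37 and 5.68 on 2385 and 2461 reads. The libraries of Nptx2 lay close together within each group, while those of Cbln1 with Activin A ran from 2.80 to 4.18 TPM.

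Bmp7, a BMP ligand that signals through SMAD1 and SMAD5, was at 14.2, 15.7 and 13.6 TPM without Activin A, against 6.42, 6.52 and 6.14 TPM with it. Ptn (pleiotrophin, a heparin-binding growth factor) was the most abundant ligand, at 42.7, 44.8 and 43.8 TPM without Activin A, against 19.5, 18.2 and 19.6 TPM with it. Hbegf, a ligand of the EGF receptor, was at 2.35, 2.88 and 1.96 TPM without Activin A, against 1.30, 0.896 and 0.999 TPM with it. These 3 genes had ratios of 2.25 to 2.29. Efna5, a membrane-anchored ephrin ligand, was at 10.0, 12.0 and 10.6 TPM without Activin A, against 4.11, 5.10 and 5.72 TPM with it. The vasodilator peptide gene Adm was at 26.2, 29.8 and 28.6 TPM without Activin A, against 12.2, 10.7 and 10.5 TPM with it. The other ligand-class genes were Pcsk1n (proSAAS, an inhibitor of a prohormone convertase), Igfbpl1, the metalloprotease gene Adamts15 and Olfml3, with ratios of 2.09 to 2.59.

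The 26 genes for receptors, adhesion and other membrane proteins had a median TPM ratio of 2.48, and 21 had a CPM ratio of at least 2. Ephb1 (ENSMUSG00000032537.15, chromosome 9, 101922128 to 102354693), a receptor for B-type ephrins that guides axons, had the largest ratio at 5.82. It was at 5.73, 5.41 and 4.87 TPM without Activin A, against 0.900, 0.998 and 0.852 TPM with it. Epha4, which binds ephrins of both types, was at 9.43, 9.34 and 9.92 TPM without Activin A, against 4.40, 3.36 and 3.27 TPM with it. Nrp2, a co-receptor for semaphorins and VEGF, was at 2.83, 3.00 and 2.85 TPM without Activin A, against 1.41, 1.21 and 1.44 TPM with it. Epha4 and Nrp2 had ratios of 2.60 and 2.14. Pcdh7, a protocadherin, was at 6.73, 6.09 and 6.35 TPM without Activin A, against 2.23, 3.00 and 2.81 TPM with it.

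Wls encodes the cargo receptor that carries Wnt proteins to the cell surface, and it was at 38.4, 37.9 and 38.7 TPM without Activin A, against 14.8, 15.4 and 20.5 TPM with it. Ror1, a receptor for Wnt5a, was at 2.39, 2.29 and 2.38 TPM without Activin A, against 1.13, 0.996 and 0.926 TPM with it. Their TPM ratios were 2.27 and 2.31. IWP2, which blocks the secretion of Wnt proteins, was present in both groups. Fgfr3, an FGF receptor, was at 5.29, 4.74 and 8.64 TPM without Activin A, against 2.99, 1.63 and 1.80 TPM with it, with replicate 3 without Activin A above the others. Vldlr, a receptor for reelin and lipoproteins, was at 12.1, 13.1 and 11.9 TPM without Activin A, against 4.18, 4.27 and 5.68 TPM with it.

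Frem2 and Fras1 encode matrix proteins of one complex in the embryonic basement membrane. Frem2 was at 15.7, 17.4 and 17.7 TPM without Activin A, against 5.92, 5.46 and 6.82 TPM with it, on 12911 reads. Fras1 was at 2.32, 9.71 and 2.48 TPM without Activin A, against 1.98, 0.995 and 1.05 TPM with it, and 67.8% of its level without Activin A came from short transcripts. Its CPM ratio was 1.49, whereas that of Frem2 was 2.80. The genes of both LIF receptor chains also had lower ratios in reads. Lifr was at 1.49, 2.88 and 2.54 TPM without Activin A, against 1.43, 0.673 and 0.966 TPM with it, and its CPM ratio was 1.42. Il6st (gp130) was at 44.6, 26.3 and 22.2 TPM without Activin A, against 17.3, 14.1 and 13.3 TPM with it, and its CPM ratio was 1.34.

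Promoter sequence was described for 81 of the 107 genes, which have 119 windows in the RefSeq promoter table (GRCm38.p6, 250 bases before to 50 bases after a start). Windows were matched by gene name and not by gene record. That of Ddit3 (127290543 to 127290842) covers the start of the main Ddit3 record (127290774), which did not meet the rule. The motifs, searched on both strands, are written with N for any base, and none contains another. GGCGCC, a sequence bound by SMAD1 and SMAD5, was in 19.3% of these windows, against 11.9% of all 32851 windows of the table and 21.9% of the 10706 windows of eligible genes at 2 TPM or more. GGAGCC, a related SMAD sequence, was in 47.1%, against 30.8% of all windows and 42.2% of the windows of expressed genes. The SMAD3 palindrome GTCTAGAC was in 0.840%, which is 1 window, against 0.213% and 0.252%. The FOXH1-like AATNNACA was in 10.1%, against 12.2% and 7.04%, and the TCF and LEF sequence CTTTGAA was in 4.20%, against 5.14% and 3.39%. The AP-1 sequence TGANTCA was in 6.72%, against 7.81% and 4.59%, and the E-box CANNTG was in 63.0%, against 72.3% and 62.4%. The median GC content was 59% in the windows of the 107 genes, 61.3% in those of expressed genes and 52.7% in all, so GC-rich letters were more frequent than in the whole table and near the share of expressed genes.

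Windows of Frem2, Vldlr and Fgfr3 are printed as examples of where GGCGCC stands in these promoters, and were picked after their values were seen. They are given 5′ to 3′ on the strand of the gene, with GGCGCC in capitals, and lie at chr3:53657306-53657605 (minus strand), chr19:27216770-27217069 (plus strand) and chr5:33721474-33721773 (plus strand) of GRCm38.p6. A match describes letters in the window and not bound sites.
Frem2: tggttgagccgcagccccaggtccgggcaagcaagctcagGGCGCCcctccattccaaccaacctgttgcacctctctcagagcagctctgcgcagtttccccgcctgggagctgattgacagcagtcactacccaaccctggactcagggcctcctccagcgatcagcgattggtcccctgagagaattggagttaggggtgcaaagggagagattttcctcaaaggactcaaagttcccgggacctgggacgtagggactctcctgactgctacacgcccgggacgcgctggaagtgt
Vldlr: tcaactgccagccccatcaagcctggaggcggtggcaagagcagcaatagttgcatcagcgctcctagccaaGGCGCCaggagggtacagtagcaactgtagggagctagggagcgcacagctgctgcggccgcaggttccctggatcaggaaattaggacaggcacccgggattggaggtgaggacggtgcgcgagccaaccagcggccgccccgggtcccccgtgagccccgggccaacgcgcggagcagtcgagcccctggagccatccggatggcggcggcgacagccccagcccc
Fgfr3: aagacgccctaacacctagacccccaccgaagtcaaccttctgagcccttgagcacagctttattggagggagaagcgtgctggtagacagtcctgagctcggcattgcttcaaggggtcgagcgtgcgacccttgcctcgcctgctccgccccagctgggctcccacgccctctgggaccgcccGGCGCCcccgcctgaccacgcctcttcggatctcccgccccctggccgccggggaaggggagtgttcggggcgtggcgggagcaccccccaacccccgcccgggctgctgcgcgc
Counted from the start of the gene, the first base of the motif is at -210 in Frem2, at -178 in Vldlr and at -65 in Fgfr3.

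Among apical and surface proteins, Podxl (podocalyxin, a sialomucin of the apical membrane) was at 45.7, 43.7 and 62.6 TPM without Activin A, against 23.2, 19 and 26.8 TPM with it. Ifitm1, an interferon-induced membrane protein gene also active in the early embryo, was at 80.0, 85.8 and 87.3 TPM without Activin A, against 42.1, 36.0 and 33.3 TPM with it. Tmem163, a zinc transporter gene, was at 2.95, 2.86 and 3.13 TPM without Activin A, against 0.845, 0.858 and 0.500 TPM with it. Their ratios were 2.20, 2.27 and 4.06. Prtg (protogenin, an immunoglobulin superfamily protein of the early neural tube) was at 23.4, 23.7 and 22.5 TPM without Activin A, against 7.81, 5.48 and 6.93 TPM with it. The folate receptor gene Folr1, the polarity gene Crb2, the lysophosphatidic acid receptor genes Lpar1 and Lpar6, the GABA-B receptor auxiliary gene Kctd12, and Vstm2b, Ecscr, Ildr2 and Lamp5 had ratios of 2.00 to 3.00.

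The 24 genes for transcription factors and nuclear proteins had a median TPM ratio of 2.70, and 18 had a CPM ratio of at least 2. En1, a homeodomain factor of the midbrain and hindbrain boundary, was at 8.77, 8.34 and 8.68 TPM without Activin A, against 3.45, 3.42 and 3.66 TPM with it. Lmx1b, a LIM homeodomain factor of the same boundary, was at 2.90, 2.89 and 1.81 TPM without Activin A, against 0.799, 1.33 and 1.46 TPM with it. Their TPM ratios were 2.45 and 2.11. Foxd4, a forkhead factor, was at 3.58, 3.80 and 3.63 TPM without Activin A, against 0.785, 0.949 and 0.791 TPM with it, a ratio of 4.36.

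Ets1, an ETS factor of neural crest, endothelium and lymphocytes, was at 23.4, 21.5 and 23.1 TPM without Activin A, against 8.23, 6.89 and 8.77 TPM with it. Nr6a1 (germ cell nuclear factor) represses the pluripotency gene Pou5f1 as embryonic cells differentiate. It was at 20.0, 20.8 and 20.4 TPM without Activin A, against 9.78, 8.92 and 10.8 TPM with it. Nr2f2, the nuclear receptor COUP-TFII, was at 6.58, 5.03 and 6.08 TPM without Activin A, against 2.77, 1.84 and 1.64 TPM with it. The ratios were 2.85, 2.07 and 2.83. Nxf7, of the nuclear RNA export factor family, was at 9.45, 7.90 and 8.38 TPM without Activin A, against 2.42, 1.52 and 1.57 TPM with it.

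Greb1l, which has a role in kidney and inner ear development, had the highest level of the nuclear group. It was at 94.2, 96.3 and 108 TPM without Activin A, against 7.58, 15.6 and 32.4 TPM with it, and 67.5% of the level without Activin A came from short transcripts. Over its longer transcripts the ratio was 4.05, on 13443 reads for the whole gene, so it kept a ratio above 2 by either measure. Rfx4, a winged-helix factor of the neural tube, was at 1.99, 7.70 and 2.10 TPM without Activin A, against 1.45, 0.374 and 0.307 TPM with it. Its CPM ratio was 3.00, and its ratio over longer transcripts was 2.94.

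The zinc finger factor genes Glis3 and Zbtb16, the LIM-only gene Lmo1, the TEAD cofactor gene Vgll3, Zbed6 (a repressor of Igf2 in muscle), the CBP and p300 co-regulator genes Cited1 and Cited4, and Hopx, an atypical homeodomain gene, had TPM ratios of 2.27 to 3.89. Zbed6 shares all of its 31-base words with another gene record, so the split of its reads is uncertain. Low CPM ratios were found for Zfp236 (1.19), for Setd1a (1.21), a histone H3 lysine 4 methyltransferase gene, and for Tcf7l2 (1.28), which encodes a DNA-binding effector of Wnt signalling. Tcf7l2 was at 2.12, 3.61 and 3.93 TPM without Activin A, against 1.82, 1.48 and 1.52 TPM with it. Nrip1, a nuclear receptor corepressor gene, had a TPM ratio of 2.00 and a CPM ratio of 1.71.

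The 16 genes grouped under muscle and sarcomere proteins had a median TPM ratio of 2.72, and 12 had a CPM ratio of at least 2. The group is broad and also holds the non-muscle actinin gene Actn1 and the small heat shock genes Cryab and Hspb2. Tnnt2 (ENSMUSG00000026414.13, chromosome 1, 135836354 to 135852260), cardiac troponin T, was at 4.96, 5.38 and 4.37 TPM without Activin A, against 0.551, 0.357 and 1.17 TPM with it, a ratio of 7.07 on 324 reads. Myh6, the alpha myosin heavy chain of the heart, was at 3.68, 2.89 and 3.03 TPM without Activin A, against 0.532, 0.951 and 0.990 TPM with it. A transcript of only 542 bases, Myh6-207, held 88.0%, 72.7% and 85.1% of its TPM without Activin A. It rested on 21.6, 14.1 and 16.3 reads without Activin A and on 3.36, 5.73 and 3.75 reads with it. Of the 31-base words of Myh6, 29.2% also occur elsewhere, mainly in its neighbour Myh7, which is one of the genes left out by name. Tnni2, troponin I of fast skeletal muscle, was at 2.44, 8.46 and 7.42 TPM without Activin A, against 0.619, 1.77 and 0.691 TPM with it, on only 116 reads.

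Tnnt3, troponin T of fast skeletal muscle, was at 10.4, 11.8 and 6.63 TPM without Activin A, against 3.01, 1.5 and 3.5 TPM with it. Myl1, a light chain of fast myosin, was at 2.50, 2.89 and 3.35 TPM without Activin A, against 0.473, 0.936 and 0.944 TPM with it. These sarcomere genes thus stayed at or below 11.8 TPM in every library. The small heat shock gene Cryab was at 39.5, 43.8 and 39.3 TPM without Activin A, against 13.8, 12.5 and 12.8 TPM with it. Hspb2, a small heat shock gene that overlaps it on the opposite strand, was at 14.5, 12.8 and 12.4 TPM without Activin A, against 5.06, 6.57 and 4.81 TPM with it.

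Actn1, a non-muscle alpha-actinin that bundles actin, was the most abundant of the 107 genes. It was at 253, 232 and 238 TPM without Activin A, against 119, 111 and 124 TPM with it, with a CPM ratio of 1.82 on 56299 reads. Fxyd1, phospholemman, was at 31.4, 30.5 and 37.9 TPM without Activin A, against 11.9, 21.1 and 16.8 TPM with it. Short transcripts held 91.1% of its level without Activin A, and its CPM ratio was 1.61. The Z-disc genes Synpo2l and Ldb3, the methyltransferase gene Smyd1, the junctional membrane gene Jph2, Dusp27, and the LIM protein gene Fhl1 had TPM ratios of 2.03 to 2.88.

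A change of leading transcript was counted where 1 transcript led in all 3 libraries without Activin A and a different one in all 3 with it. By this rule Rbm20, which regulates the splicing of titin, was the only one of the 107 genes with such a change. The transcript Rbm20-203 held 63.8%, 53.3% and 62.5% of its TPM without Activin A, against 38.5%, 41.8% and 44.5% with it, where Rbm20-201 led in all 3 libraries. Its gene level was 3.15, 4.10 and 3.54 TPM without Activin A, against 0.957, 0.911 and 1.08 TPM with it. The same transcript led in all 6 libraries in 54 genes. In the rest, apart from Rbm20, Ddit3 and Zfp991, the leading transcript varied within a group. Ddit3 had no reads in the group with Activin A, and Zfp991 had none in replicate 2 of that group. Leaving out replicates 1 or 2 without Activin A gave 3 such genes in each case, and leaving out replicates 1, 2 or 3 with Activin A gave 5, 4 and 2, with Rbm20 among them each time. In 22 of the 107 genes the leading transcript without Activin A is annotated as other than protein-coding. This share was not counted over all genes. Among the 22, that transcript held 46.2% of TPM without Activin A in Wls, 41.4% in Epha4, 43.5% in Vldlr and 81.7% in Olfml3. Gene levels there are thus not those of coding transcripts alone.

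The 15 genes for enzymes, kinases and others had a median TPM ratio of 2.41, and 10 had a CPM ratio of at least 2. Cyp26a1 (ENSMUSG00000024987.6, chromosome 19, 37697798 to 37701536) encodes an enzyme that degrades retinoic acid. It was at 31.6, 36.0 and 32.8 TPM without Activin A, against 6.50, 6.24 and 5.70 TPM with it, a ratio of 5.44 on 4043 reads. Gadd45a, a gene induced by DNA damage and stress, was at 67.8, 79.7 and 69.3 TPM without Activin A, against 31.1, 28.4 and 28.1 TPM with it. Eras, a Ras-like GTPase gene of embryonic stem cells, was at 19.6, 20.7 and 19.8 TPM without Activin A, against 7.18, 7.21 and 7.21 TPM with it. The spread of Eras within each group was among the narrowest of the 107. Pkdcc, a secreted tyrosine kinase gene, was at 19, 12.8 and 15.2 TPM without Activin A, against 8.98, 7.12 and 7.36 TPM with it.

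Stk32c, a kinase gene, had a TPM ratio of 3.88. The kinase genes Wnk4 and Sgk1, the collagen prolyl hydroxylase gene P3h2, the glycosyltransferase genes A4galt, B4galnt2 and Galnt16, the ADP-ribosyltransferase gene Art5, Rnf165 (a ubiquitin ligase that enhances BMP signalling), the F-box gene Fbxl2 and the retrotransposon-derived gene Rtl8a had TPM ratios of 2.01 to 2.59. Of the 31-base words of Rtl8a, 87.8% also occur elsewhere, mainly in Rtl8b, so the split of its reads is uncertain. Fbxl2 had a CPM ratio of 1.45.

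The 13 genes for cytoskeleton, trafficking and scaffolds had the lowest median TPM ratio of the 6 role groups, 2.11, and 6 of them had a CPM ratio of at least 2. They included abundant genes. Anxa3, an annexin that binds membranes with calcium, was at 103, 111 and 94.8 TPM without Activin A, against 46.7, 50.8 and 52.5 TPM with it. Hdac6, the deacetylase of tubulin, was at 49.2, 52.3 and 48.3 TPM without Activin A, against 24.6, 24.6 and 21.1 TPM with it. Etl4 was at 30.7, 39.7 and 34.0 TPM without Activin A, against 19.9, 17.0 and 12.6 TPM with it. The groups of Etl4 and of Gas2l3 came closer to each other than those of Anxa3 and Hdac6. Gas2l3, which links actin and microtubules, was at 39.3, 40.9 and 48.2 TPM without Activin A, against 20.7, 15.1 and 28.3 TPM with it.

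Sept2, a septin, has a pair of gene records at its locus, and only the record ENSMUSG00000026276.20 met the rule. That record was at 49.3, 42.0 and 45.9 TPM without Activin A, against 22.3, 17.0 and 25.3 TPM with it. The other record, ENSMUSG00000116048.1, was at 67.4, 67.6 and 65.9 TPM without Activin A, against 58.3, 53.8 and 72.9 TPM with it, and its groups overlap. The records share exons, so the split of reads between them is uncertain. The same holds for Palm2 (paralemmin) and Pakap, which overlap on chromosome 4 and had ratios of 3.73 and 2.07. The docking protein gene Nedd9, Afap1l2, Inka1, the clathrin adaptor subunit gene Ap1s2 and the clathrin-binding gene Hip1 had TPM ratios of 2.03 to 2.43. Frmd4a had a TPM ratio of 2.83 and a CPM ratio of 1.30.

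The choice of genes was repeated with each library left out. The rule was applied to 5 libraries at a time, and the 119 to 135 genes that it chose were then read in the library left out. All libraries of the other group had a part in the choice, so these shares favour the chosen genes over the background of all eligible genes, and they are given as a description only. Without Activin A, the left-out library lay above all 3 libraries with Activin A in 123 of 133 genes (92.5%) for replicate 1, in 110 of 121 (90.9%) for replicate 2 and in 118 of 128 (92.2%) for replicate 3. Over all eligible genes at 2 TPM these shares were 32.1%, 42.1% and 32.8%. It stood at 2 times the mean with Activin A or more in 88 (66.2%), 83 (68.6%) and 88 (68.8%) of them, against 1.33%, 1.59% and 1.30% of all eligible genes. Replicate 1 without Activin A, whose growth factor label names Activin A, had the shares of 92.5% and 66.2%. Whether that label is right was not tested.

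With Activin A, the left-out library lay below all 3 libraries without it in 117 of 127 genes (92.1%) for replicate 1, in 105 of 119 (88.2%) for replicate 2 and in 126 of 135 (93.3%) for replicate 3, against 46.3%, 53.1% and 31.9% of all eligible genes. It stood at 2-fold below the mean without Activin A in 85 (66.9%), 87 (73.1%) and 76 (56.3%) of them, against 1.66%, 2.21% and 1.87%. The lowest of these shares was that of replicate 3, the library with the fewest reads. A part of the genes chosen by the other libraries thus fell short of a ratio of 2 in each library left out.

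**Figure D3:**
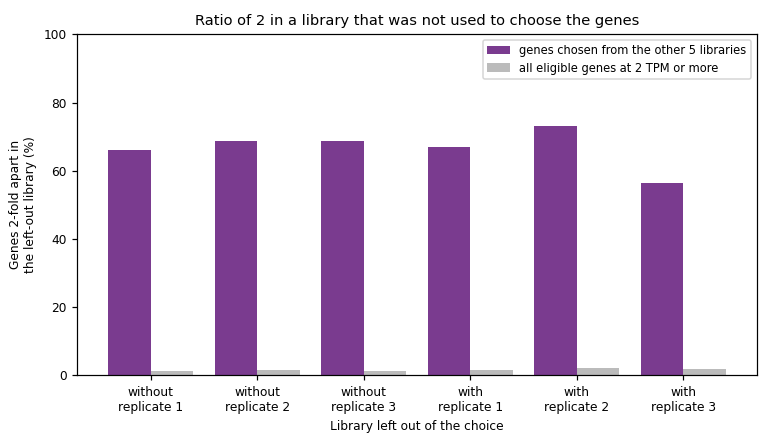
Share in percent of the genes chosen from 5 libraries that were 2-fold apart in the library left out, for each of the 6 libraries, beside the same share of all eligible genes at 2 TPM or more. The shares of chosen genes run from 56.3% to 73.1%, and those of all eligible genes, which were not chosen on the libraries of the other group, from 1.30% to 2.21%.

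Some of the 107 genes are neighbours. Pcsk1n (7919822 to 7924410), Eras (7924276 to 7928607) and Hdac6 (7930120 to 7947889) lie side by side on the X chromosome. Cryab (50751325 to 50756636, plus strand) and Hspb2 (50751078 to 50752354, minus strand) overlap on chromosome 9, each with its start site inside the other gene. These start sites lie 1.03 kb apart. Tnni2 (142441808 to 142444410) and Tnnt3 (142498836 to 142516009) lie on chromosome 7, with Igf2, left out by name, 168 kb from the start of Tnnt3. Myh6 lies 27.7 kb from Myh7 on chromosome 14. Exons overlap a gene on the opposite strand in 33 of the 107 genes, and on the same strand in 8. The library kit keeps strand, but the use of strand in the counting is not stated, so reads of such partners may not be told apart.

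The neighbours that the rule did not choose were read in the edgeR fit. For each of the 107 genes, the nearest tested protein-coding gene on each side within 200 kb was taken, leaving out the 107 and the 16 names, which gave 125 genes beside 83 of the 107. Of these neighbours 38 (30.4%) rose and 12 (9.6%) fell, beside 15.2% higher and 16.0% lower among all 13683 protein-coding genes tested. Some neighbours share sequence with the gene beside them, such as Rtl8b with Rtl8a and the other Sept2 record with Sept2. A part of these counts may thus rest on reads that cannot be told apart. The median log2 fold of the neighbours was 0.08, so most did not move far. With limma-trend on log2(TPM + 1) the counts were 20 rises and 7 falls. Over all genes that method called 778 higher and 781 lower, against 2155 and 2350 by edgeR.

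The neighbours with the smallest p were Zfp36l1, Ptpn3, Zfp988 and Htr3a. Zfp36l1, an mRNA decay factor 147 kb from Actn1, was at 226, 273 and 249 TPM without Activin A, against 147, 133 and 135 TPM with it, giving a log2 fold of 0.78 ± 0.05 SE (edgeR adjusted p = 2.21e-08). Zfp988, a zinc finger gene near Zfp991, was at 1.65, 2.01 and 1.79 TPM without Activin A, against 0.422, 0.498 and 0.374 TPM with it (log2 fold 2.03 ± 0.17 SE, edgeR adjusted p = 4.22e-07). Neighbours also fell. Ptpn3, a phosphatase gene near Palm2, was at 2.95, 3.30 and 3.49 TPM without Activin A, against 7.31, 6.97 and 9.72 TPM with it, and fell by 0.99 on the log2 scale. Htr3a, a serotonin-gated channel gene near Zbtb16, was at 1.29, 1.70 and 1.39 TPM without Activin A, against 3.84, 3.88 and 4.22 TPM with it, and fell by 1.47. All 4 calls held under the 12 other settings tried.

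Neighbours of the same family as the gene beside them were looked at after their values were seen, and they rose in some cases and not in others. Ifitm2 beside Ifitm1 (log2 fold -0.17, edgeR adjusted p = 0.0843), Art1 beside Art5 (0.80, adjusted p = 0.0948), Fli1 beside Ets1 (0.52, adjusted p = 0.385) and Fxyd5 beside Fxyd1 (-0.20, adjusted p = 0.464) did not pass. Ifitm3 beside Ifitm1 and Rtl8b beside Rtl8a rose by 0.27 and 0.69 on the log2 scale. Wnt10b, a Wnt ligand gene 11.7 kb from Wnt1, was at 0.710, 1.03 and 0.491 TPM without Activin A, against 0.152, 0.0905 and 0.158 TPM with it (log2 fold 2.31 ± 0.33 SE, edgeR adjusted p = 9.17e-05). Cyp26c1, a retinoic acid hydroxylase gene 12.2 kb from Cyp26a1, was at 0.469, 0.350 and 0.681 TPM without Activin A, against 0.0999, 0.115 and 0.0443 TPM with it (log2 fold 2.36 ± 0.46 SE, edgeR adjusted p = 0.00131). Both levels were low, on at most 44 reads in a library for Wnt10b and 22 for Cyp26c1. Rtl8c, 35.7 kb from Rtl8a, was at 18.5, 16.7 and 16.5 TPM without Activin A, against 8.86, 9.39 and 9.16 TPM with it, and rose by 0.89 on the log2 scale, but reads may be shared within that family. Ddn, 19.6 kb from Wnt1 on its other side, was called higher at 0.188, 1.10 and 0.390 TPM without Activin A, against 0.0321, 0.363 and 0 TPM with it, and these levels overlap. Suv39h1, a histone H3 lysine 9 methyltransferase gene beside Hdac6, Eras and Pcsk1n, was at 18.6, 20.6 and 18.7 TPM without Activin A, against 13.0, 12.4 and 14.1 TPM with it, and rose by 0.52. The calls of Wnt10b, Cyp26c1, Rtl8c and Suv39h1 also held under all 12 other settings.

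**Figure D4:**
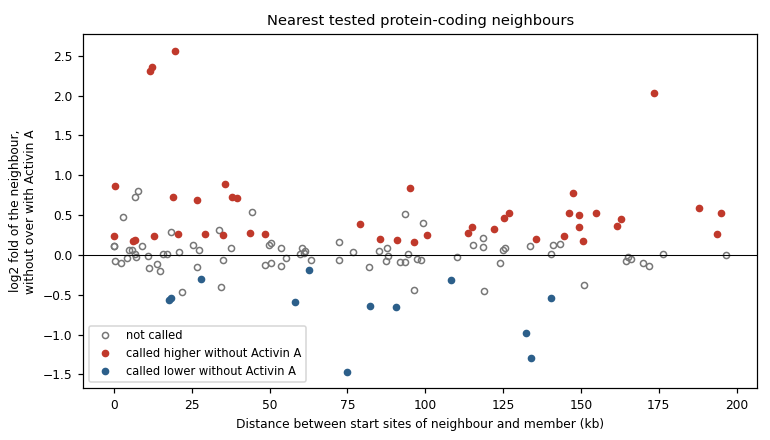
log2 fold of each neighbour, without over with Activin A, against the distance in kb between its start site and that of the gene beside it, coloured by the edgeR call at an adjusted p of 0.05. Red points mark the 38 rises and blue points the 12 falls (a gene beside several of the 107 is drawn once for each), and the 3 rises above a log2 fold of 2 at under 25 kb are Wnt10b, Cyp26c1 and Ddn.

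Other genes of the pathways that the 107 belong to were counted in the same edgeR fit, where 14.0% of all tested genes rose, 15.2% fell and the median log2 fold was 0.0012. Over all genes edgeR called 2155 higher and 2350 lower, and limma-trend 778 and 781, so list counts by limma-trend stand beside a lower background. The 16 names left out of the rule stay in the counts and medians of the lists. As 14 of them met the rule in this same contrast, nothing is read from their rises. Of 19 other BMP and SMAD1/5 target and feedback genes, 11 rose and 1 fell, with a median log2 fold of 0.65. The rises include Id1, Id2, Id3 and Id4, which are among the names left out of the rule, and they numbered 5 with limma-trend. Bmp7 was the list's gene among the 107. The fall was that of Fst (follistatin, which binds Activin), with 1.49 ± 0.307 CPM without Activin A and 2.94 ± 0.739 CPM with it (SD, n = 3 each, edgeR adjusted p = 0.00601), and it was lost with limma-trend on log2(TPM + 1) (adjusted p = 0.292, the highest over 12 settings, the lowest being 0.000473). Of 16 Wnt and beta-catenin target and feedback genes, 5 rose and 4 fell, with a median of 0.12, and none of that list was among the 107. The rises include Tnfrsf19 and Frzb, which are among the names left out. Lgr4, a receptor for R-spondins, fell by 0.63 on the log2 scale.

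Of 24 other contractile and cytoskeletal genes of muscle, 15 rose and 3 fell, with a median log2 fold of 0.40. The rises include Acta2 and Myh7, which are among the names left out. Tnnt1, troponin T of slow skeletal muscle, moved against its relatives Tnnt2 and Tnnt3, at 39.8, 40.9 and 45.7 TPM without Activin A, against 78.1, 78.9 and 83.2 TPM with it, a fall by 0.98 (edgeR adjusted p = 1.53e-08). The 3 falls became 1 on leaving out replicate 2 or 3 without Activin A, or replicate 1 or 2 with it, and with DESeq2 or limma-trend. Of 37 other axon guidance and cell adhesion genes, 8 rose, including Cdh6 of the names left out, and 10 fell, with a median of -0.11. Ntn1 (netrin 1), an axon guidance cue under the floor of the rule, was at 1.52, 1.79 and 1.89 TPM without Activin A, against 0.382, 0.299 and 0.266 TPM with it, a rise of 2.34 on the log2 scale (edgeR adjusted p = 2.21e-08). Cdh3 (P-cadherin) was at 0.718, 0.582 and 0.717 TPM without Activin A, against 1.80, 1.52 and 1.75 TPM with it, and fell by 1.35. With limma-trend the counts of that list were 4 rises and 2 falls.

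Of 33 other genes of the retinoid pathway and regional patterning, 8 rose, including Gbx2 of the names left out, and 11 fell, with a median log2 fold of -0.03. Crabp1, a cellular binding protein for retinoic acid, was at 18.0, 17.1 and 17.0 TPM without Activin A, against 63.0, 59.7 and 57.8 TPM with it, and fell by 1.82 (edgeR adjusted p = 5.91e-10). The falls of the list numbered 5 with limma-trend.

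Of 32 ERK, AP-1 and immediate early genes, 14 rose, including Dusp5 of the names left out, and 7 fell, with a median log2 fold of 0.12. Fosl2, an AP-1 subunit, was at 9.54, 9.82 and 9.35 TPM without Activin A, against 6.03, 5.98 and 4.66 TPM with it, and rose by 0.83. Etv5, an ETS factor induced by FGF signalling, was at 10.3, 9.35 and 8.31 TPM without Activin A, against 20.1, 23.0 and 21.2 TPM with it, and fell by 1.55. The 7 falls became 1 with limma-trend. Of 46 other growth factors, cytokines and binding proteins, 5 rose, including Igf2 of the names left out, and 18 fell, with a median of -0.25, so Ptn and Hbegf moved against most called genes of their list. Igfbp3, which binds insulin-like growth factors, was at 18.1, 18.9 and 17.2 TPM without Activin A, against 63.4, 63.9 and 73.5 TPM with it, and fell by 1.91 (edgeR adjusted p = 4.56e-12). Igfbp4, of the same family, rose by 0.44. With limma-trend 3 rose and 7 fell, and with DESeq2 3 rose. Of 38 imprinted genes, none of which is among the 107, 15 rose and 7 fell, with a median of 0.26, and 5 of the rises are among the names left out.

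Markers of other cell types were summed in TPM. The 12 muscle markers summed to 197 to 202 TPM without Activin A and to 156 to 158 TPM with it, and of 9 tested 5 rose and 2 fell. Of that list Tnnt2 is among the 107, Cnn1 was the largest at 83.2, 69.6 and 80.3 TPM without Activin A, against 59.7, 56.0 and 57.9 TPM with it, and the cardiac genes Nkx2-5, Tbx5 and Myl7 were under 1 TPM in every library. The 22 fibroblast markers, which the feeder cells express, summed to 238 to 242 TPM without Activin A and to 195 to 230 TPM with it, and of 22 tested 4 rose and 12 fell. The largest part of that sum was Col1a1, at 60.0, 67.7 and 71.8 TPM without Activin A, against 38.0, 28.4 and 46.6 TPM with it. Dcn went the other way, at 2.15, 2.55 and 3.04 TPM without Activin A, against 4.68, 4.30 and 4.97 TPM with it. Neural crest markers summed to 32.1 to 34.1 TPM without Activin A and to 16.4 to 19.6 TPM with it. Most of that sum and of its difference was Ets1 itself, while Sox10, Tfap2b and Pax3 stayed under 1 TPM in every library, and 3 of 10 tested rose and 4 fell. The part of feeder, muscle or crest cells in the levels of the 107 genes was not tested.

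Neuronal markers summed to 203 to 247 TPM without Activin A and to 406 to 430 TPM with it, and of 15 tested 1 rose and 7 fell. Most of that sum was Stmn2, at 166, 184 and 150 TPM without Activin A, against 351, 332 and 352 TPM with it, while Gap43 was at 21.4, 23.5 and 21.8 TPM without Activin A, against 16.3, 16.0 and 19.6 TPM with it. Neural progenitor markers summed to 68.5 to 70.0 TPM without Activin A and to 68.7 to 74.6 TPM with it, with 3 rises and 2 falls among 7 tested. Endothelial markers summed to 4.41 to 8.92 TPM without Activin A and to 2.35 to 10.0 TPM with it, and of 6 tested 4 rose and 0 fell. The highest sum of each group came with Esam, at 0.753, 0.623 and 3.83 TPM without Activin A, against 0.297, 7.15 and 0.544 TPM with it. Endoderm markers summed to 13.0 to 15.2 TPM and to 9.77 to 10.7 TPM with Ttr at 0, and of 3 tested 1 rose and 1 fell. Most of that sum was Dab2, and the other 10 markers were under 1 TPM in every library. Trophoblast markers summed to 8.50 to 12.0 TPM and to 8.33 to 15.4 TPM with Prl3d1 and Tpbpa at 0, and of 6 tested 2 rose and 2 fell. Markers of pluripotent epiblast, the labelled cell type, were present in both groups and summed to 447 to 484 TPM without Activin A and to 805 to 850 TPM with it, with 2 rises and 9 falls among 12 tested.

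The edges of the rule were narrow. Just inside the ratio of 2 were Gas2l3, Fxyd1 and Pkdcc, each at 2.00, and just outside were Arhgef26, Rhoj and Pik3r3, each at 1.99. Arhgef26, a guanine nucleotide exchange factor gene, was at 5.37, 6.03 and 6.86 TPM without Activin A, against 3.35, 2.86 and 2.95 TPM with it. Rhoj, a small GTPase gene, was at 5.02, 6.26 and 4.35 TPM without Activin A, against 3.16, 2.73 and 1.96 TPM with it. Pik3r3, a regulatory subunit gene of PI3 kinase, was at 5.69, 6.30 and 5.98 TPM without Activin A, against 2.68, 2.63 and 3.72 TPM with it. The lowest mean inside was that of Lamp5, at 2.77, 1.97 and 1.54 TPM without Activin A, against 0.849, 0.946 and 1.34 TPM with it. Just under a mean of 2 TPM were Usp29 and Igsf23. Usp29, an imprinted gene, was at 2.38, 1.23 and 2.26 TPM without Activin A, against 0.820, 0.620 and 0.933 TPM with it. Igsf23 was at 1.28, 2.54 and 2.02 TPM without Activin A, against 0.369, 0.379 and 0.796 TPM with it. A total of 19 of the 107 had a ratio under 2.1, and the mirror of the rule, higher with Activin A, was met by 182 genes.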

How the data were processed

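Poly(A) RNA was sequenced in 6 libraries, 3 per group. Per the file headers, the deposited columns hold a TPM value and an estimated count for each transcript, in the layout of salmon. Salmon, edgeR and DESeq2 are named in the submitters' processing notes. The authors' build, annotation and strand setting were not given in the sources used here. Of 133618 transcripts, 133399 matched GENCODE release M21 by identifier with the version ignored, and the rest, 0.1305% to 0.1488% of reads, were left out. Deposited TPM values and estimated counts were summed per gene, and counts were rounded for the tests.

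The main test was edgeR 4.0.16 (R 4.3.3) with filterByExpr, TMM scaling, robust quasi-likelihood and Benjamini-Hochberg adjustment over 15448 genes, 3 without against 3 with Activin A, checked on simulated counts. A log2 fold is without over with. An exact permutation test of 3 against 3 cannot go below p = 0.1 two-sided and was not used. Gene lists and neighbours were counted in this fit with no set test, and limma 3.58.1 and DESeq2 1.42.0 gave alternatives. The effective length under 100 bases as a limit was added after the data had been seen.

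The 107 genes, the lists, the role groups and the tests were chosen with earlier results of these data known. Values in every library were set to be given for the 15 genes with the highest mean without Activin A, the 15 with the highest ratio, each gene in a list, and genes at the edges of the rule, with up to 2 called genes per direction of a list and 4 neighbours by smallest p. Other genes with values were picked after these were seen. The result of 1 gene that this rule names is not reported here.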

Additional observations from a re-analysis of the deposited data

How the results depend on the processing

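The membership depended on the unit and on the limits of the rule. It held 107 genes as given, 161 with TMM-scaled CPM in place of TPM (79 shared, 73.8% of the 107 and 49.1% of the 161), 423 at a ratio of 1.5, 29 at a ratio of 3 and 66 at a mean of 5 TPM, against 144 at a mean of 1 TPM, and 119 to 135 on leaving out each library. Over all genes, edgeR called 4505 (47.8% of them higher without Activin A), limma-trend on log2(TPM + 1) 1559, DESeq2 3365, upper-quartile scaling 4439 (39.1% higher) and the removal of each library 3246 to 5689. Same-numbered libraries of the groups did not deviate together (correlations of -0.025, -0.052 and -0.057). With so few libraries this cannot show whether same-numbered libraries were made together, and the labels do not say. A fit with the replicate block called 4422. With limma-trend the BMP list had 5 rises (11 in edgeR) and 0 falls (1), the muscle list 1 fall (3), the axon guidance list 4 rises (8) and 2 falls (10), the retinoid list 5 falls (11), the ERK list 1 fall (7), the growth factor list 3 rises (5) and 7 falls (18), and the neighbours 20 rises (38) and 7 falls (12). DESeq2 gave 1 muscle fall and 3 growth factor rises. On leaving out each library the muscle falls ran from 1 to 3, the genes with a changed leading transcript from 1 to 5, and the neighbours that rose from 31 to 49. None of the 18 genes outside the 107 that were followed through the settings, among them Zfp36l1, Wnt10b, Cyp26c1, Tnnt1, Crabp1 and Etv5, reversed in direction. Few reads limit the ratios of Wnt1 (11, 16 and 6 reads with Activin A), of Tnni2 (116 in all 6 libraries) and of Myl1 (114). They also limit that of Myh6, whose leading transcript had at most 21.6 reads in a library.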
